A study of Rattus norvegicus with 6 samples.

Results

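Ceruloplasmin and 7 further genes that carry, store or buffer copper, iron and zinc were followed in the dorsolateral prostate of aged male ACI rats, an inbred strain. All probe sets that the platform annotation assigns to Cp, Tf, Tfrc, Fth1, Ftl1, Mt1, Mt2A or Mt3 were taken, which gave 13 of the 8799 probe sets on the array. The genes were chosen by function around Cp, which itself was selected on its difference between the diets on these same arrays. The diet differences of the 13 probe sets are therefore given as a description, with no test. The high corn oil group held 3 rats fed a diet high in corn oil for 18 months, and the low corn oil group 3 rats fed a diet low in corn oil for the same time. All rats were 18 months old per the labels, and each rat had its own array. Array values are intensities scaled by the authors, which can lie below 0. The source name and title put high corn oil replicate 3 on the high diet, while its description names the low diet, so it was kept as high.

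Ceruloplasmin is a copper-carrying plasma protein that oxidises iron so that transferrin can bind it, and it belongs to the acute-phase proteins of the liver. Transferrin brings iron to cells through the transferrin receptor, and ferritin, a shell of heavy and light chains, stores the iron inside them. Metallothioneins are small cysteine-rich proteins that bind zinc and copper, and their genes are switched on by metal through short promoter elements. The rat lateral prostate is known for its high zinc content.

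The annotation limits what each probe set can be said to measure. Cp had 3 probe sets, Tfrc 1 and Mt3 1 that were annotated to that gene alone. The other 8 probe sets were annotated to several genes and cannot be credited to the member alone. Of these, the 3 for Tf were shared with Srprb, a subunit of the signal recognition particle receptor. The Fth1 probe set was shared with a ferritin pseudogene, and the 2 for Ftl1 with ferritin light chain copies and Ripor2. The Mt1 probe set was shared with Mt1f and Ttr, and the Mt2A probe set with Mt1m. On the GRCr8 rat assembly Cp lies on chr2:104368336-104427119, Tf on chr8:112668667-112695376 and Tfrc on chr11:81668478-81690318. Fth1 lies on chr1:216052037-216054325 and Ftl1 on chr1:105072858-105074705. Mt1 (chr19:10831959-10832975), Mt2A (chr19:10837934-10838708) and Mt3 (chr19:10854676-10856080) lie within 24.1 kb of each other. Where in a transcript each probe set lies was not given in the sources used here.

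The promoters of Cp and of the 3 metallothionein genes are shown because Cp differed most between the diets and because metallothionein genes are known to answer metal through promoter elements. Each is the 250 bases before the start in RefSeq (GRCr8), read 5′ to 3′ on the gene's strand. For the metallothionein genes, capitals mark the metal response element core, searched as TGCACNC or TGCGCNC on both strands. For Cp, capitals mark the C/EBP motif TTGCNNAA, also searched on both strands. The windows are chr2:104368420-104368669 (+ strand) for Cp, chr19:10832976-10833225 (- strand) for Mt1, chr19:10838709-10838958 (- strand) for Mt2A and chr19:10856081-10856330 (- strand) for Mt3. The Cp window lies inside the annotated span of the gene, since the RefSeq start used there is not the outermost one.
Cp: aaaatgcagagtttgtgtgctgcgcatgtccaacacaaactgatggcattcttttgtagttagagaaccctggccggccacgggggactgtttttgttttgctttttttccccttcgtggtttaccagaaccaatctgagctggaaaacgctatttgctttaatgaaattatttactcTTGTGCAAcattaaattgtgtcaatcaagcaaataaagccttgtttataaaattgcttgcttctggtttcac
Mt1: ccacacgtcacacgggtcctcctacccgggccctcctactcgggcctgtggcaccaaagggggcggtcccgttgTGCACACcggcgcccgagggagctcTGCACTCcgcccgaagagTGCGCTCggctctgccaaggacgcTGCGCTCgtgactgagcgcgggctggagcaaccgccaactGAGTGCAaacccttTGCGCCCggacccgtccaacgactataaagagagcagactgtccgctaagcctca
Mt2A: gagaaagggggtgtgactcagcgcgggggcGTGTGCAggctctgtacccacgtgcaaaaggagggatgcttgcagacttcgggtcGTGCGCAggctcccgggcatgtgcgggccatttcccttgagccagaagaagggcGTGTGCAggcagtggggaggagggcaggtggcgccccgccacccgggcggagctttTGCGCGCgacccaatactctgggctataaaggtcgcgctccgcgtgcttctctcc
Mt3: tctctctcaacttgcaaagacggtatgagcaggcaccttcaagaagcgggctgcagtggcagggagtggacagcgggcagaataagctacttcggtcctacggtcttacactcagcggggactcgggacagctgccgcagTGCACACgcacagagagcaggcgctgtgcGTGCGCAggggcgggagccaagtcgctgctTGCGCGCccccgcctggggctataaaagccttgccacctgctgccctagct

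Matches to the metal response element core numbered 6 in the Mt1 promoter, 4 in that of Mt2A and 3 in that of Mt3, and 0 in that of Cp. The element was not limited to the metallothioneins, since the Tfrc promoter held 3 matches and that of Tf 2. The Tfrc matches that began 82 and 79 bases before the start overlapped, on opposite strands. Overlapping matches were counted separately in all promoters. Of 33469 rat promoters of the same length, 20.6% held at least 1 such match, 1.17% at least 3, 0.266% at least 4 and 0.0269% at least 6. The match nearest the start began 55 bases before it in Mt1 and in Mt2A and 51 bases before it in Mt3. The Cp promoter held 1 match to the C/EBP motif, starting 72 bases before the start, and 9.22% of the promoters held at least 1. The Tf promoter held 1 as well. C/EBP proteins are transcription factors of liver and acute-phase genes. These matches describe the letters in the windows and were not tested for binding.

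Cp was lower under the high corn oil diet in all of its 3 probe sets, and in the brighter pair the diets did not overlap. The brightest, L33869_at, read 20269, 21735 and 19229 on the arrays of high corn oil replicates 1 to 3, against 35964, 30551 and 35333 in low corn oil replicates 1 to 3. Every high corn oil array lay below every low corn oil array, and the high arrays were close to each other. The means were 20411 ± 1259 (SD, n = 3) under the high diet and 33950 ± 2960 (SD, n = 3) under the low diet, a ratio of 0.60 and a log2 difference of -0.73 ± 0.13 (SE). With intensities floored at 0, log2 differences were taken of the value plus a pseudocount of 156.1, which understates differences of dim probe sets. In bulk tissue, fewer cells of a type and less RNA per cell cannot be told apart.

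The second Cp probe set, rc_AA817854_s_at, read 4323, 2072 and 2270 on the high corn oil arrays, against 10036, 6087 and 7793 in the low corn oil arrays. The groups were again separate, and high corn oil replicate 1 lay about midway between the other high arrays and the lowest low array. Its means were 2888 ± 1246 on the high diet and 7972 ± 1980 on the low diet (SD, n = 3 each), a ratio of 0.36 and a log2 difference of -1.46 ± 0.31 (SE). The third, Y12178_at, was dim, at 499, 766 and 454 on high-diet arrays, against 576, 910 and 785 in the low corn oil arrays. There the groups overlapped, and the log2 difference was -0.33 ± 0.29 (SE). The 3 probe sets thus had the same sign but differed in size.

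**Figure D1:**
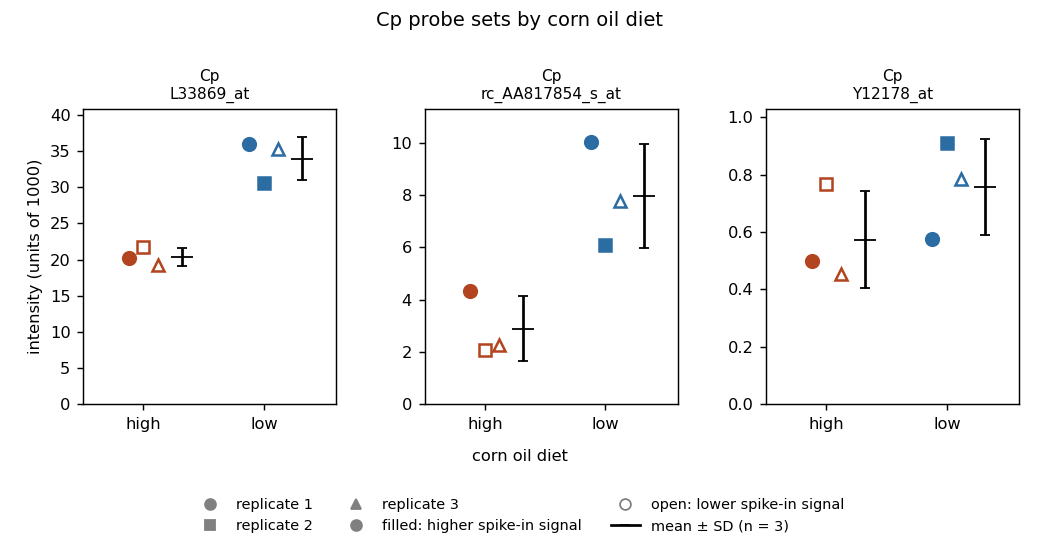
Intensity (in units of 1000) of the 3 Cp probe sets on each array by corn oil diet, with the mean ± SD (n = 3) as black bars, each panel on its own axis from 0. Filled symbols are arrays of higher bacterial spike-in signal. In L33869_at and rc_AA817854_s_at all high corn oil arrays lie below all low corn oil arrays, and in Y12178_at they overlap.

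Of the 13 probe sets, 2 had diets that did not overlap, both of Cp and both lower under the high diet. Over all 5244 tested probe sets, 15.5% did not overlap in either direction, and 6.71% were separate and lower under the high diet. Because the Cp contrast chose these genes, nothing is read from that count. In the fit over all tested probe sets, limma called 0.0% at a Benjamini-Hochberg adjusted p of 0.05, with 9.95% at an unadjusted p under 0.05 and a smallest adjusted p of 0.462. In total 8 of the 13 were lower and 5 higher, with a median log2 difference of -0.07, against 0.03 over all tested probe sets.

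The arrays also differed in ways that cut across the diets. The mean signal of 7 probe sets for bacterial spike-in controls was 20645 in high corn oil replicate 1 and 19603 and 25061 in low corn oil replicates 2 and 1. It was lower, at 8471 and 12251, in replicates 2 and 3 of the high diet and, at 11195, in replicate 3 of the low diet. The secretory genes Pbsn and Msmb, which mark the rat prostate, were bright on every array. Pbsn read 99574, 19851 and 21926 on the high-diet arrays and 78113, 82039 and 81437 on low-diet arrays, and Msmb read 73854, 33652 and 39953 on high-diet arrays, against 66835, 71719 and 80234 on low-diet arrays. In these 2 genes high corn oil replicate 1 lay near the low arrays, while replicates 2 and 3 lay below them. The other 3 measured genes of the secretory list differed less, with log2 differences of -0.20 for Krt18, -0.04 for Krt8 and 0.13 for Tgm4. The lowest Tgm4 value was in low corn oil replicate 3, at 5749. The secretory list summed to 254701 in high corn oil replicate 1 and to 116674 and 112809 in replicates 2 and 3, against 213986 to 238728 on low-diet arrays.

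The log2 difference of the brightest Cp probe set, L33869_at, was -0.71 among the arrays of higher spike-in signal and -0.78 among those of lower signal. It was -0.72 with high corn oil replicate 1 left out. The higher group held 1 high and 2 low arrays, and the lower group 2 high and 1 low. Cp was chosen on its difference on these same arrays, and this probe set varied little within a diet. Any such subset had to give a value close to that of all arrays, so nothing is read from these. For rc_AA817854_s_at the values were -0.83 within the higher and -1.77 within the lower group, so its size varied with the arrays compared. If high corn oil replicate 3 is moved to the low diet, as its description has it, the differences were -0.48 for L33869_at and -0.91 for rc_AA817854_s_at. The diets then overlap in both probe sets. The moved array read 19229 and 2270 there, below high corn oil replicate 1 at 20269 and 4323. Most fibroblast, macrophage and smooth muscle markers were lower under the high diet, as Cp was. The marker genes were chosen after their values were seen, so their counts are given as a description. Over all 5244 tested probe sets, 6.71% were separate and lower under the high diet and 15.5% separate in either direction. The fibroblast list, measured by 8 of 8 genes, summed to 63538 to 85430 in high corn oil arrays, against 95575 to 134370 in low corn oil arrays, and 6 of its 8 tested genes had separate diets, all lower. The macrophage list, measured by 6 of 9 genes, summed to 33161 to 51766 on high-diet arrays, against 51087 to 51753 on low-diet arrays, and 4 of its 5 tested genes were separate and lower. The remaining tested gene, Lyz2 (-0.08 ± 0.24, SE), held most of that sum on every array. It read 21112, 34265 and 39833 on high-diet arrays, against 29369, 33037 and 35165 on low-diet arrays. The smooth muscle list, measured by 8 of 8 genes, summed to 133907 to 169279 on high-diet arrays, against 163060 to 201446 on low-diet arrays. The median log2 difference of its 8 tested genes was -0.30, with 7 lower, and 2, Actg2 (-0.76) and Myl9 (-0.36), were separate. The basal epithelium list, measured by 2 of 3 genes, had the opposite sign and summed to 12862 to 14104 on high-diet arrays, against 11031 to 11927 on low-diet arrays. Its Krt5 was separate and higher (0.27). None of the measured markers in these 4 lists was at or below 0 on all arrays, and the part of these cell types in the Cp difference was not tested.

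Most genes of plasma proteins made in the liver were dim, with Apoc3 the exception. Of 9 such genes 3, Alb, Apoa1 and Apoc3, passed the filter on low values, and the whole list summed to 3775 to 5932 on high-diet arrays and 4616 to 5083 on low-diet arrays. Apoc3, an apolipoprotein gene, held most of that sum on every array, at 2589, 3342 and 3507 on high-diet arrays, against 3568, 3416 and 3613 on low-diet arrays. Apoa2 was at or below 0 on all arrays. Alb, serum albumin, read 566, 909 and 592 on high-diet arrays, against 357, 535 and 634 on low-diet arrays. Among the other tested acute-phase genes, only Hpx lay further from 0 than its SE. Of 6 tested, 5 were higher and 1 lower, with a median log2 difference of 0.15, and 0 passed the test. Over all 5244 tested probe sets, 2415 were lower. The lower one was Serping1, the C1 inhibitor gene (-0.12 ± 0.17, SE). The higher ones were Hpx, described below with the iron genes, the orosomucoid gene Orm1 (0.18 ± 0.34), the haptoglobin gene Hp (0.11 ± 0.29), complement C3 (0.29 ± 0.36) and the protease inhibitor gene A2m (0.10 ± 0.20). Without high corn oil replicate 2, 3 of these 6 were higher. The listed genes Lcn2 (-1.28) and Fgb (0.13) fell below the filter and had values below 0 on some arrays.

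The genes whose pattern over the 6 arrays was most like that of L33869_at were Cd48, Fgfbp3, Hprt1, Fbxo22 and Fcgr2b. Cp was chosen on its diet difference, so this ranking returns genes with a diet difference of like size. Their log2 differences ran from -0.72 for Cd48 to -0.52 for Hprt1 and Fbxo22, and a shared regulation was not tested. Likeness was the root-mean-square difference between log2 profiles, each centred on its own mean, over 4151 named probe sets above 0 on every array. It was 0.115 for Cd48, a surface protein of leukocytes, and 0.131 for Fcgr2b, the inhibitory Fc receptor of B cells and myeloid cells. For Fgfbp3, which encodes a fibroblast growth factor binding protein, it was 0.121, for Hprt1, the purine salvage enzyme, 0.123, and for Fbxo22, an F-box protein gene, 0.126. The median over all compared probe sets was 0.477. Cd48 read 1569, 1588 and 1138 on the high corn oil arrays, against 2668, 2025 and 2687 on the low corn oil arrays. The other Cp probe sets were less alike, at 0.329 for Y12178_at and 0.513 for rc_AA817854_s_at, whose difference was larger. Among the metal handling genes other than Cp the values ran from 0.346 for the Mt1 probe set to 0.607 for the Tf probe set D38380_at. The measure counts the size of a difference, so a probe set with little change can score below the median without following Cp. The nearly flat Ftl1 probe set rc_AI231807_g_at did so, at 0.355.

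The transferrin probe sets did not move with Cp. D38380_at, shared by Tf and Srprb, read 14590, 13943 and 9778 on the high corn oil arrays, against 9498, 7617 and 10953 on the low corn oil arrays. High corn oil replicates 1 and 2 lay above all low arrays, and replicate 3 within their range. Its means were 12770 ± 2612 on the high diet and 9356 ± 1673 on the low diet (SD, n = 3 each), a log2 difference of 0.44 ± 0.21 (SE). D38380_g_at read 14057, 10833 and 6789 on high-diet arrays, against 10811, 8964 and 9814 on low-diet arrays, a log2 difference of 0.04 ± 0.26 (SE). U31866_g_at read 4519, 2007 and 1465 on high-diet arrays, against 3162, 2630 and 2047 on low-diet arrays, a log2 difference of -0.10 ± 0.39 (SE). In all 3 the highest array of the series was high corn oil replicate 1, and in the last pair of probe sets the lowest was high corn oil replicate 3. Within the arrays of higher spike-in signal the log2 differences were 0.77, 0.51 and 0.62 in the order named, and within those of lower signal 0.09, -0.19 and -0.23.

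Tfrc, the receptor that takes up iron-loaded transferrin, was too dim to compare. Its probe set M58040_at read 213, -20.7 and 226 on the high corn oil arrays, against 117, 145 and 151 on low-diet arrays. Its mean lay below the filter of 342.9, so it is the 1 of the 13 probe sets that was not tested. The log2 difference was -0.07, and it was 0.36 without high corn oil replicate 2, the array below 0.

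The ferritin probe sets, bright on every array, differed little between the diets. The Fth1 probe set, for the heavy chain with its ferroxidase activity, read 54910, 44453 and 50024 on the high corn oil arrays, against 37545, 47140 and 54442 on the low corn oil arrays. The groups overlapped, with means of 49796 ± 5232 on the high diet and 46375 ± 8474 on the low diet (SD, n = 3 each) and a log2 difference of 0.11 ± 0.17 (SE). For the light chain, rc_AI231807_at read 45483, 32861 and 35474 on high-diet arrays, against 31063, 37909 and 43067 on low-diet arrays, a log2 difference of 0.02 ± 0.18 (SE). The other light chain probe set, rc_AI231807_g_at, annotated to 8 genes where the first had 9, read 33219, 35054 and 35782 on high-diet arrays, against 35307, 34887 and 36852 on low-diet arrays, a log2 difference of -0.04 ± 0.12 (SE). That probe set had the smallest spread of the 13, with coefficients of variation of 3.8% on the high diet and 2.9% on the low diet. The 2 light chain probe sets disagreed on the order of the arrays: high corn oil replicate 1 was the highest array in the first and the lowest in the second.

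The metallothionein probe sets were also bright, and their diets overlapped. The Mt1 probe set read 42359, 31306 and 36955 on the high corn oil arrays, against 38922, 37253 and 44261 on the low corn oil arrays. Its means were 36873 ± 5527 on the high diet and 40145 ± 3660 on the low diet (SD, n = 3 each), a log2 difference of -0.13 ± 0.16 (SE). The Mt2A probe set read 35189, 15091 and 15850 on high-diet arrays, against 22938, 27180 and 32165 on low-diet arrays. High corn oil replicate 1 was the highest of all 6 arrays there, while replicates 2 and 3 were the lowest. Its means were 22043 ± 11391 on the high diet and 27428 ± 4618 on the low diet (SD, n = 3 each), a log2 difference of -0.41 ± 0.33 (SE).

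The Mt2A difference depended on which arrays were compared. It was -0.81 when high corn oil replicate 1 was left out and -0.20 when replicate 2 was. It was 0.49 within the arrays of higher spike-in signal and -1.05 within those of lower signal. Mt3, first known as a growth inhibitory factor of the brain, read 58581, 36942 and 38964 on the high corn oil arrays, against 33722, 50194 and 38906 on the low corn oil arrays. Here too high corn oil replicate 1 was the highest of the series, and the log2 difference was 0.12 ± 0.23 (SE), with -0.09 without that array. The metallothionein promoters with their metal response elements are those shown above, and zinc or copper content was not measured in these data.

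**Figure D2:**
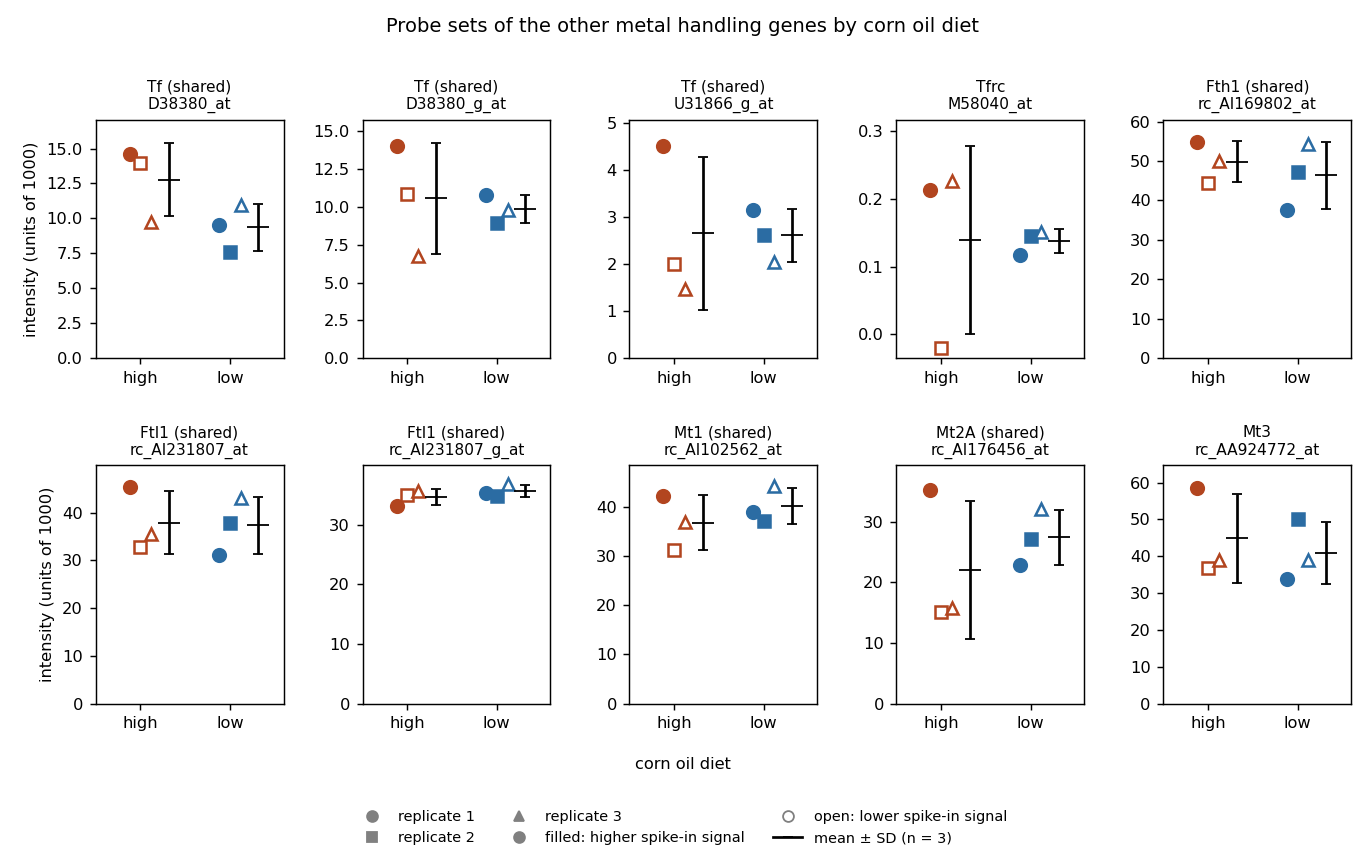
Intensity (in units of 1000) of the 10 probe sets for Tf, Tfrc, Fth1, Ftl1, Mt1, Mt2A and Mt3 on each array by corn oil diet, with the mean ± SD (n = 3) as black bars. "Shared" marks probe sets annotated to several genes. The diets overlap in every panel, and high corn oil replicate 1 is the highest of the high arrays in 8 of the 10.

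High corn oil replicate 1 was the highest of the high arrays in most of the bright metal handling probe sets, and in much of the array at large. Of the 9 with a mean intensity of at least 10000, 7 had their highest high corn oil value in replicate 1. Among all 739 tested probe sets that bright, 56.0% did. At a mean of at least 20000 the members' count was 5 of 7, or 71.4%, near the 67.4% of all 374 tested probe sets at that level. High corn oil replicate 1 was also the array in which the 99th percentile of intensity was highest, at 57281, against 40928 and 46547 in the other high corn oil arrays and 49649 to 56201 on low-diet arrays. Within the arrays of higher spike-in signal, 9 of the 13 probe sets were higher under the high diet and 4 lower. Within the arrays of lower signal, 1 was higher and 12 lower. The first comparison sets 1 high array against 2 low ones and the second 2 against 1, so these values have no test. The same counts were not taken over all tested probe sets, so nothing particular to metal handling genes is read from them. The 3 Cp probe sets and rc_AI231807_g_at were lower in both. The part of array signal in the differences of the other probe sets was not tested.

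**Figure D3:**
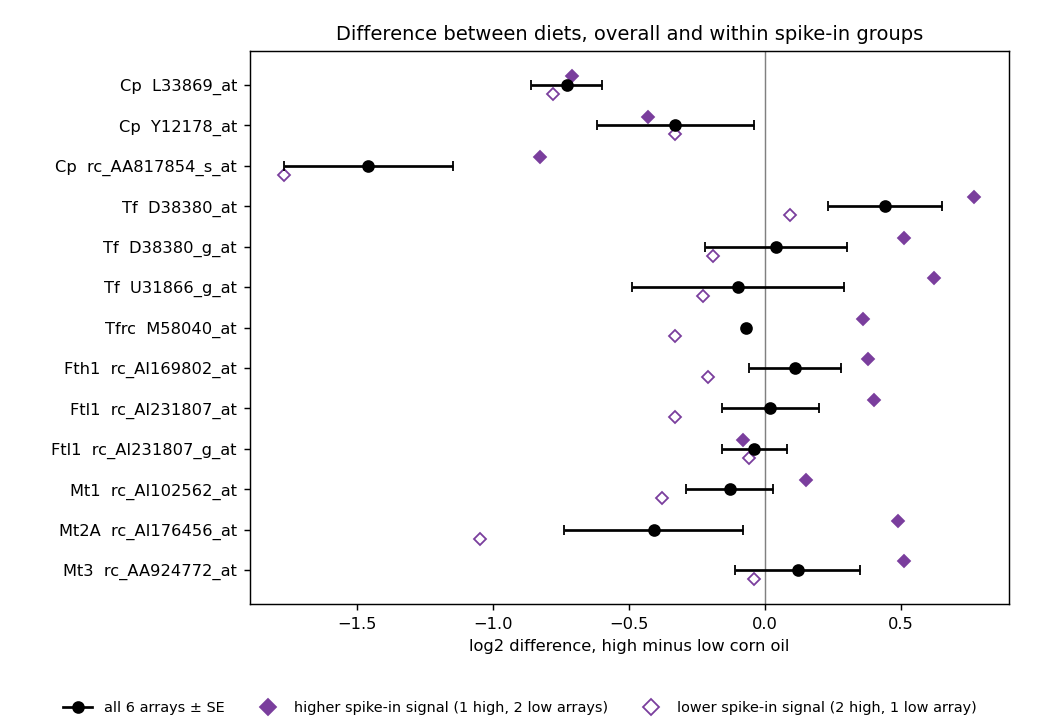
Log2 difference, high minus low corn oil, of the 13 probe sets. Black points use all 6 arrays with the limma standard error (none for Tfrc, which was below the filter), and diamonds the arrays of higher or lower spike-in signal alone. The Cp probe sets lie left of 0 in every comparison, whereas the Mt2A probe set lies at -1.05 and 0.49 in the spike-in groups.

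Other genes of metal handling gave no call. In the fit over all probe sets, 0 of 6 copper, 0 of 18 iron and haem and 0 of 5 zinc genes passed limma's test at the adjusted threshold, with 0, 2 and 0 at an unadjusted p under 0.05. The share at that unadjusted p over all tested probe sets was 9.95%, so nothing is read from these counts. Few genes of the lists could be tested: 6 of 23 for copper, 18 of 45 for iron and haem and 5 of 30 for zinc.

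Of the copper genes, 0 were higher and 6 lower under the high diet, with a median log2 difference of -0.24, and 5 of 6 were lower without high corn oil replicate 1. The copper amine oxidase gene Lox, which cross-links collagen and elastin, read 2915, 657 and 421 on the high corn oil arrays, against 2646, 2204 and 3393 on the low corn oil arrays. High corn oil replicate 1 lay within the low range. The log2 difference of Lox was -1.34 ± 0.58 (SE; limma adjusted p = 0.501), and without high corn oil replicate 1 it was -2.06 ± 0.26 (limma adjusted p = 0.0219). Other tested probe sets of Lox were at -0.20 ± 0.21 and -0.32 ± 0.23. The prion protein gene Prnp, whose product binds copper, was at -0.38 ± 0.27, and Sod3, the extracellular copper-zinc superoxide dismutase, at -0.33 ± 0.25. Sod1, the cytosolic form of that enzyme, was at -0.13 ± 0.14 in its brightest probe set but at 0.37 ± 0.26 and -2.21 ± 0.99 in others. The last of these had means of 131 under the high diet and 4192 under the low diet. Its high mean lay below the filter of 342.9, so the size of its difference depends on the floor and pseudocount. The copper-exporting ATPase genes Atp7a and Atp7b, the first known for its role in Menkes disease and the second for loading copper onto ceruloplasmin in the liver, were below the filter.

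Of the iron and haem genes, 8 were higher and 10 lower, with a median log2 difference of -0.01. Of the 18, 1 was separate and higher and 1 separate and lower, against 15.5% of all tested probe sets separate in either direction. The haem-binding plasma protein gene Hpx read 579, 1290 and 1004 on the high corn oil arrays, against 524, 309 and 455 on the low corn oil arrays, with no overlap. The log2 difference of Hpx was 0.89 ± 0.33 (SE; limma adjusted p = 0.480). Blvra, which encodes the biliverdin reductase of haem breakdown, was separate in the other direction, at 879, 585 and 637 on high-diet arrays, against 995, 1268 and 1391 on low-diet arrays. The log2 difference of Blvra was -0.69 ± 0.24 (SE; limma adjusted p = 0.480). Ncoa4, the receptor that delivers ferritin for degradation, read 7437, 17239 and 16492 on high-diet arrays, against 7274, 6577 and 9083 on low-diet arrays, so that high corn oil replicate 1 lay among the low arrays. The log2 difference of Ncoa4 was 0.75 ± 0.33 (SE; limma adjusted p = 0.501), and without high corn oil replicate 1 it was 1.14 ± 0.17 (limma adjusted p = 0.0283). B2m, the partner of the iron regulator Hfe and of class I molecules, was at -0.26 ± 0.15.

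Of the zinc genes, 2 were higher and 3 lower, with a median of -0.06. The 4 highest ranked by p were the calprotectin subunit genes S100a9 (-0.65 ± 0.73, SE) and S100a8 (-0.06 ± 0.46), the LIM domain gene Crip2 (-0.09 ± 0.23) and the zinc transporter gene Slc30a4 (0.14 ± 0.38). S100a8, S100a9 and Slc30a4 were dim, with means of 223 to 437 under the high diet. The high mean of S100a9, 223, lay below the filter of 342.9, so it passed only through its low arrays. S100a9 read 1137, 315 and 98 on low-diet arrays, and S100a8 read 1023, 303 and 262. Low corn oil replicate 1 thus held most of both low means. Slc30a2, a vesicular zinc transporter gene named here after its values were seen, was bright, at 46521, 25301 and 29696 on high-diet arrays, against 25435, 35905 and 36064 on low-diet arrays. The log2 difference of Slc30a2 was 0.03 ± 0.26 (SE), and high corn oil replicate 1 was again the highest of the 6 arrays.

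**Figure D4:**
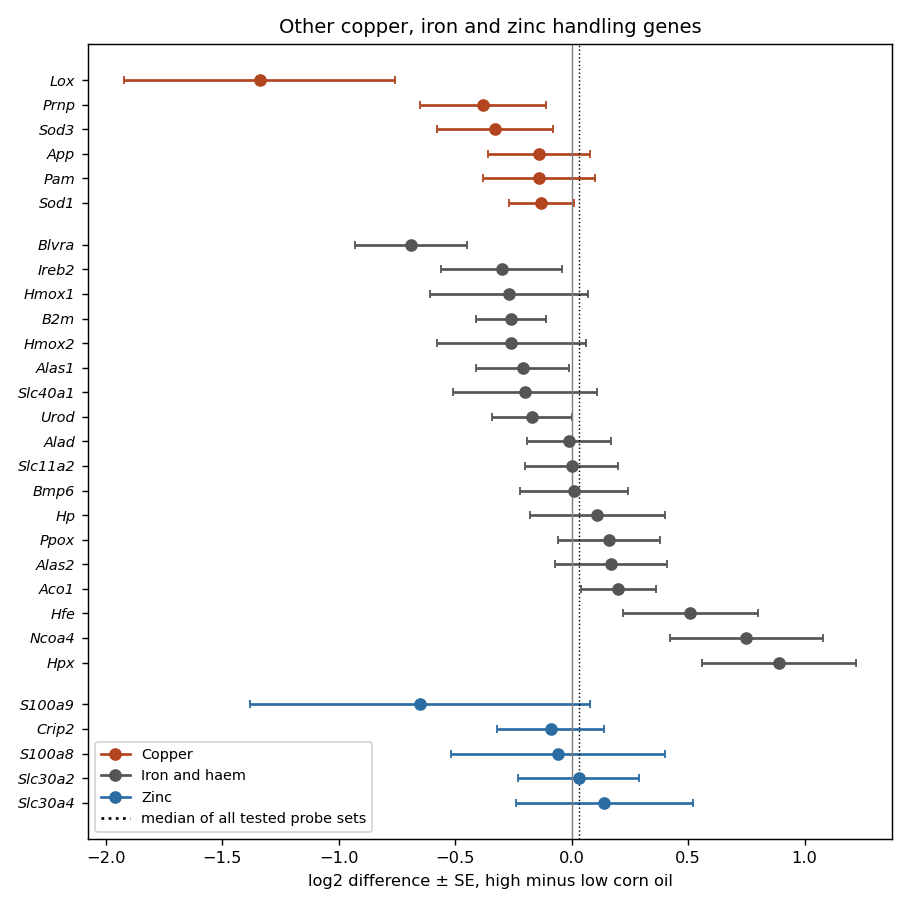
Log2 difference ± SE, high minus low corn oil, of the tested copper (red), iron and haem (grey) and zinc (blue) handling genes other than the members, 1 probe set per gene. The dotted line is the median of all tested probe sets, 0.03. Lox lies lowest at -1.34 and Hpx highest at 0.89, and no gene passed the test.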

How the data were processed

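Total RNA was measured in 6 dorsolateral prostates, 3 per diet, with 6 ug of RNA labelled per array. The deposited intensity values, 1 per probe set and array, are linear and were scaled by the authors to 2% trimmed means of 2503 or 2504; MAS5 is the only tool named, per the submitters' processing notes, with no settings given. From 18.6% to 23.1% of an array's values were at or below 0. Values below 0 were set to 0 and log2(value + 156.1) was used, the pseudocount being the median divided by 4. Probe sets with a mean of at least 342.9 (the 40th percentile, controls left out) were tested, 5244 in all, with limma 3.58.1 in R 4.3.3 (intensity trend, two-sided, Benjamini-Hochberg adjustment). Outside the members the brightest probe set of a gene was used. Of 7006 probe sets with 1 gene, 6985 were renamed through their gene identifier to GRCr8 symbols, and 308 had several genes. The named genes were all members, the 4 genes of smallest p in each metal list and the 5 most like Cp. Marker, plasma protein and acute-phase genes, Atp7a, Atp7b and Slc30a2 lie outside that rule and were chosen after their values were seen. The members and lists were chosen with earlier results of these data known. Arrays above and below the median spike-in signal formed the spike-in groups. The number of arrays limits the precision. Alternatives changed the pseudocount, filter, floor, normalization, trend, weights, blocks and arrays used. The limma step was tested on simulated data.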

Additional observations from a re-analysis of the deposited data

How the results depend on the processing

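The log2 difference of the brightest Cp probe set, -0.73, stayed below 0 under every alternative run. It ran from -0.80 to -0.68 when each array was left out in turn and was -0.48 with replicate 3 of the high diet moved to the low diet. Cp was chosen on these arrays, and the diets did not overlap in this probe set. Leaving out an array could therefore not change the sign. The median over the 13 probe sets, -0.07, ran from -0.23 to -0.01 with an array left out. It was 0.38 within the arrays of higher and -0.33 within those of lower spike-in signal. The median over all tested probe sets was not taken within these groups, and the cause of the shift was not tested. Over all probe sets limma called 0, against 9 with no filter, 0 to 214 with an array left out (214 without high corn oil replicate 1) and 218 with quantile normalization besides. The counts at an unadjusted p under 0.05 ran from 75, with replicate 3 of the high diet moved, to 1534 with array weights, against 522. Of the related metal genes limma called 0, against 0 to 2 with an array left out and 2 with quantile normalization and without high corn oil replicate 1, Lox and Ncoa4 both times. Of 204 values for the other 12 probe sets under alternatives, 186 moved by less than 1 SD between replicates and 18 by more, 14 of them within a spike-in group. The 186 include the values with the replicate number as a block, which that block could not move. The diets share replicate numbers in the titles, but same-numbered arrays deviated together in only 1 of 3 pairs (correlations of -0.0538, -0.203 and 0.18), so the numbers were not taken to pair the rats. With the replicate number as a block limma called 0, with 554 at an unadjusted p under 0.05. Each number holds 1 array of each diet, so that block could not change any log2 difference, and that of Cp remained -0.73. Dim probe sets such as those of Tfrc and Y12178_at are limited by the floor at 0 and the unknown background.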
